A study of Mus musculus with 10 samples.

Results

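The genes described here carry out the use of ketone bodies and the activation of acetoacetate: Bdh1, Oxct1, Acat1 and Aacs. Their members on the array were chosen by name, as every probe set annotated to exactly 1 of these symbols, which gave 12 of the 45037 probe sets that are not controls, for 4 of the 18193 genes named by a probe set. A probe set is a group of short oligonucleotides that report 1 transcript or a part of it. The comparison was gastrocnemius muscle of mice homozygous for the D257A allele of Polg (PolgD257A/D257A, written D257A) against their wild type (Polg+/+, written WT), with 5 mice in each group and 1 array per mouse. All 10 mice were males of 13 months and none received a treatment that the labels name. Polg encodes the catalytic subunit of the mitochondrial DNA polymerase, and the D257A substitution impairs its proofreading, so that mutations build up in mitochondrial DNA. The allele is a germline knock-in carried by every cell, so its effects in muscle alone cannot be told apart from its effects elsewhere in the body. The colony was of mixed 129Sv/ICR/B6 origin, backcrossed for a few generations to C57Bl/6J, and differences tied to strain origin were not tested.

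Ketone bodies are made from fatty acids, mainly in liver, and are burned in muscle, heart and brain. In the mitochondrion, beta-hydroxybutyrate dehydrogenase (Bdh1) oxidizes beta-hydroxybutyrate to acetoacetate. Succinyl-CoA:3-oxoacid CoA transferase (Oxct1), the step that sets a tissue's capacity to use ketone bodies, moves CoA from succinyl-CoA onto acetoacetate, and acetoacetyl-CoA thiolase (Acat1) splits the product into acetyl-CoA for the TCA cycle. Acat1 also serves the last step of isoleucine breakdown. Acetoacetyl-CoA synthetase (Aacs) acts outside the mitochondrion: it joins acetoacetate to CoA at the cost of ATP, and its product feeds the synthesis of sterols and fatty acids.

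Transcripts of the mitochondrial enzymes Bdh1 and Oxct1 were lower and the transcript of the cytosolic enzyme Aacs was higher in D257A muscle. Those of Acat1 were lower by less, and their calls depended on the processing and on single mice. Of the 12 probe sets, 11 passed the filter on dim signals and were tested: 8 were lower in D257A (both of Bdh1, all 4 of Oxct1, 2 of 3 of Acat1), 2 were higher (both tested probe sets of Aacs, of which 1 passed the filter through its D257A signals alone) and 1 of Acat1 did not pass. In the background of all 22518 tested probe sets, 7.38% were called in either direction (3.74% lower and 3.64% higher) at the same threshold, an adjusted p under 0.05 from the limma fit. At the same 8 and 2 probe sets the mice of the genotypes did not overlap, against 3.77% of all tested probe sets with every D257A mouse lower and 3.94% with every D257A mouse higher. The share of calls that were higher was 49.3% over all tested probe sets, and it depended on how the arrays were scaled, at 29.4% with no further scaling and 79.3% when each array was centred on its median.

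The arrays were close in RNA integrity and differed slightly in overall brightness. The trimmed mean of the deposited signals lay between 93.4 and 106 in D257A and between 94.5 and 129 in WT, where mouse 1-13M was the highest. Each array was brought to a trimmed mean of 500 before any comparison. After that scaling the median log2 signal was 6.36 ± 0.06 (SD, n = 5) in D257A and 6.49 ± 0.05 in WT (difference -0.13, two-sided exact permutation test, p = 0.0238). The log2 ratio of 3′ to 5′ control probe sets, a sign of RNA integrity, was -0.32 ± 0.04 in D257A and -0.30 ± 0.09 in WT (exact permutation test, p = 0.651). WT mouse 1-13M stood nearer to the D257A mice than the other WT mice did at the Oxct1 probe sets, so results are also given without it where a call or the size changed. It was picked by these same signals, so all values without it are a description and lend no further support. Leaving it out also raised the calls over all tested probe sets from 1662 to 3439. The meaning of the leading digit of the mouse numbers is not given. Every D257A number starts with 2, against 2 of the 5 WT numbers. A block on that digit thus takes its differences from the D257A mice and those 2 WT mice. These are the same differences as with the mice numbered 2 alone. The 3 probe sets of Polg had adjusted p of 0.768, 0.422 and 0.18, and since the allele is a point substitution, the level of Polg does not check the labels. The 7 fibre genes of skeletal muscle summed to 353175 to 384083 signal units in D257A and 315871 to 414831 in WT and none was called different, whereas 5 of 7 cochlea genes were too dim to be tested, which bears on a line of the RNA protocol that mentions cochlea in place of muscle.

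RefSeq promoter sequences (build GRCm38.p6, from 250 bases before to 50 after a transcription start) were found for 3 of the 4 genes, and they are shown because these genes differed in opposite directions. Acat1 had no entry. Bdh1 has a pair of annotated starts. The capitals mark TGCGCA, the core of the binding motif of nuclear respiratory factor 1.

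Aacs chr5:125475623-125475922: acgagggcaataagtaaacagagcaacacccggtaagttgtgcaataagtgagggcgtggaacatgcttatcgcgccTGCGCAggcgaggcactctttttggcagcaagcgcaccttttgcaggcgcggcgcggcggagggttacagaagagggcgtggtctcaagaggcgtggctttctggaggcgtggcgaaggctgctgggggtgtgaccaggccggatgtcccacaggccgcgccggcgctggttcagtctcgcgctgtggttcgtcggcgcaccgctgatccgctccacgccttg

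Oxct1 chr15:4026178-4026477: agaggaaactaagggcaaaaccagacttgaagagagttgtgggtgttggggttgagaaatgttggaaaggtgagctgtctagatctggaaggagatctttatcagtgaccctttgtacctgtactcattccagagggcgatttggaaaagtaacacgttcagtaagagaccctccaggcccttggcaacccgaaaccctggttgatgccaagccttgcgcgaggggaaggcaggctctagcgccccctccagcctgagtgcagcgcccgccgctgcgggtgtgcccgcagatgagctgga

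Bdh1 chr16:31422047-31422346: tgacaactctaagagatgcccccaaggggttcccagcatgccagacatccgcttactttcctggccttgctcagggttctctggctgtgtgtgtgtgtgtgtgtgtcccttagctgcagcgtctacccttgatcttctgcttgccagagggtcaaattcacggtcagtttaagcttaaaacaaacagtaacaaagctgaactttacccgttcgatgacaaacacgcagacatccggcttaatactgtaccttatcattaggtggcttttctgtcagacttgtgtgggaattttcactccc

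Bdh1 chr16:31428503-31428802: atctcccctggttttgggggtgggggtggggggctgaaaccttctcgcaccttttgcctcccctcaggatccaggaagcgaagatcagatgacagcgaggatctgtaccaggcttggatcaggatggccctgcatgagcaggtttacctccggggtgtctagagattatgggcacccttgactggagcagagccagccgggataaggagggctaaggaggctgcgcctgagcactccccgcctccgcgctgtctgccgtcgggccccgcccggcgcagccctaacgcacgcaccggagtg

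The Aacs window holds 63.3% G and C and 30 CpG, against medians of 52.7% and 7 CpG over all promoters of that length. The Oxct1 window holds 55.3% and 11 CpG, the upstream Bdh1 window 48.3% and 7 CpG, and the downstream one 63.7% and 17 CpG. Of the motifs searched on both strands, the half-site AGGTCA of nuclear receptors (16.3% of 32851 promoters), its extended form AAGGTCA (4.72%, which contains the former), the E-box CACGTG (7.15%) and the CCAAT box (37.4%) matched in none of the 4 windows. The only match was TGCGCA in Aacs, with its first base at position -173 from the start, a motif in 7.76% of promoters. The motifs were chosen after the sequences had been seen, and a match is a description of the letters alone.

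Bdh1, the enzyme that brings beta-hydroxybutyrate into the pathway, was the most reduced of the mitochondrial enzymes. At its brighter probe set (1452257_at) the scaled signals of D257A mice 2-17M, 2-21M, 2-25M, 2-27M and 2-30M were 1107, 1436, 1460.3, 1205 and 1576. Those of WT mice 1-12M, 1-13M, 2-3M, 2-32M and 3-18M were 5448, 4111, 3964, 5278 and 4142. The groups were far apart, with the highest D257A mouse well under the lowest WT mouse. The means were 1357 ± 194 in D257A and 4589 ± 713 in WT (SD, n = 5 each), so that WT signal was 3.38 times that of D257A. The log2 difference was -1.76 (SE 0.14, 95% interval -2.05 to -1.47, limma adjusted p = 1.56e-05), which was the 32nd-largest fall among the tested probe sets.

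The dimmer Bdh1 probe set (1426959_at) gave 97.2, 175, 222, 156 and 182 in the D257A mice and 768, 458, 567, 847 and 442 in the WT mice, in the same order. Again no D257A mouse reached the lowest WT mouse. The log2 difference was -1.89 (SE 0.24, limma adjusted p = 6.89e-04), within the error of the brighter probe set. Without WT mouse 1-13M, the differences were -1.79 and -1.98. In whole muscle, fewer cells of a type and less RNA per cell cannot be told apart.

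Oxct1, the CoA transferase, fell at all 4 of its probe sets. The brightest (1449059_a_at) gave 8662, 10239, 9976, 8316 and 8601 in the D257A mice. In the WT mice it gave 22219, 11649, 19816, 20764 and 23721. The D257A mice kept within a narrow range, all under WT mouse 1-13M, which in turn lay well under the other WT mice. The means were 9159 ± 881 and 19634 ± 4703, a log2 difference of -1.06 (SE 0.16, 95% interval -1.41 to -0.72, limma adjusted p = 0.00215).

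The other 3 probe sets of Oxct1 separated the genotypes in the same way. Signals at 1428140_at were 2435, 2792, 2793, 2285 and 2599.8 in D257A against 8684, 4330.1, 7198, 7244 and 7561 in WT (log2 difference -1.41, SE 0.16, limma adjusted p = 4.03e-04). Signals at 1436750_a_at were 2695, 2617, 4350.4, 3688 and 3370.4 in D257A against 9141, 4770.2, 10082, 10042 and 11818 in WT (-1.42, SE 0.22, limma adjusted p = 0.00215). Mouse 1-13M was the lowest WT mouse at both, and the groups did not overlap. The dimmest, 1455804_x_at, whose suffix marks probes that can also bind other transcripts, gave 508, 630.2, 592, 549 and 626 against 1494, 748, 1365, 1098 and 1356 (-1.02, SE 0.17, limma adjusted p = 0.00393). Without mouse 1-13M the 4 differences were larger, at -1.24, -1.57, -1.64 and -1.19 in the order given here. That mouse lay, as a share of the log2 distance between the average of the remaining WT animals and that of D257A (0 at the former, 1 at the latter), at 0.716, 0.522, 0.671 and 0.689 for these probe sets, but at 0.101 and 0.238 for Bdh1.

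**Figure D1:**
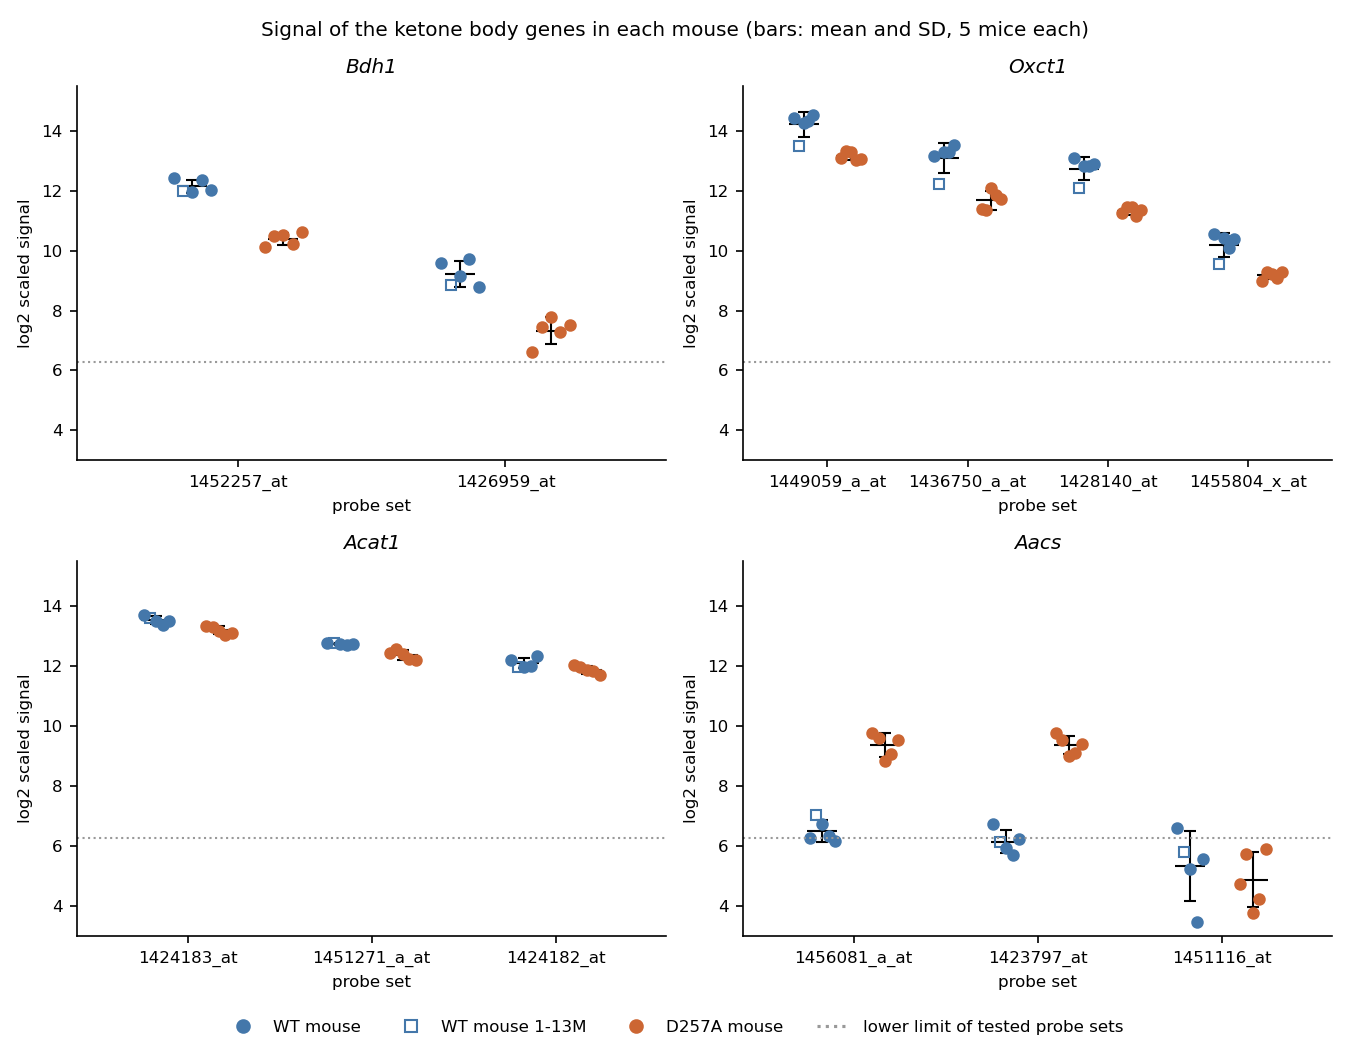
Log2 scaled signal (vertical axis) of each mouse at the 12 probe sets of Bdh1, Oxct1, Acat1 and Aacs; points are mice, bars give the mean and SD of 5 mice, WT mouse 1-13M is drawn as an open square, and a dotted line gives the lower limit of the tested probe sets. D257A mice lie under every WT mouse for Bdh1 and Oxct1 and above every WT mouse at 2 of 3 Aacs probe sets.

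Acat1, the thiolase shared with isoleucine breakdown, was lower by a much smaller amount. At the brightest probe set (1424183_at) the D257A mice gave 10439.5, 10177, 9366, 8404 and 8791 and the WT mice 13285, 12646, 11732, 10726 and 11557. The groups were adjacent but did not overlap. The means were 9436 ± 872 and 11989 ± 995, a log2 difference of -0.35 (SE 0.09, 95% interval -0.55 to -0.15, limma adjusted p = 0.037).

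A second Acat1 probe set (1451271_a_at) gave 5589, 6126, 5421, 4860.2 and 4731 in D257A and 7096, 7068, 6860.2, 6649.6 and 6835 in WT, with a log2 difference of -0.37 (SE 0.09, limma adjusted p = 0.0271). The third (1424182_at) gave 4208, 4000.0, 3719.7, 3645 and 3323 in D257A and 4702, 4052, 4069, 4150.3 and 5198 in WT. There the groups overlapped at 1 D257A mouse, and the difference of -0.23 (95% interval -0.46 to 0.00) did not pass (limma adjusted p = 0.214). The Acat1 calls were near the threshold and depended on the scaling and on the mice used. Median centring gave -0.21 at 1424183_at and -0.24 at 1451271_a_at (limma adjusted p = 0.191 and 0.159). The mice numbered 2 alone gave -0.25 and -0.34 (limma adjusted p = 0.161 and 0.093). With the leading digit as a block, limma adjusted p was 0.247 and 0.156. With quantile normalization both calls were kept (limma adjusted p = 0.0189 and 0.0169). For 1424183_at, adjusted p was 0.0776 to 0.0993 with any of 2-25M, 2-27M, 2-30M, 1-12M and 2-3M left out, and for 1451271_a_at it was 0.0505 to 0.0686 without 2-17M, 2-25M, 2-27M, 2-30M, 1-12M, 2-3M or 2-32M.

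Aacs, the cytosolic synthetase, showed the opposite pattern and by a larger amount. At 1456081_a_at the D257A mice gave 879.9, 773, 460.3, 539 and 750.3, and the WT mice 76.0, 129.9, 106, 80.2 and 71.6. The lowest D257A mouse was several times the highest WT mouse. The means were 680 ± 175 and 92.7 ± 24.7 (SD, n = 5 each), so that D257A signal was 7.34 times that of WT. The log2 difference was 2.87 (SE 0.22, 95% interval 2.40 to 3.35, limma adjusted p = 1.56e-05), the 6th-largest rise among tested probe sets.

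Probe set 1423797_at of Aacs gave 874, 744, 517, 554 and 680.0 in D257A and 105, 70.7, 61.2, 51.4 and 75.0 in WT. Mice 2-25M and 2-27M were the lowest of the D257A group at both of these probe sets, and the groups were well separated. Here D257A signal was 9.27 times that of WT and the log2 difference 3.23 (SE 0.21, 95% interval 2.77 to 3.68, limma adjusted p = 4.71e-06). At this probe set 4 of 5 WT mice and the WT mean (6.14 log2) were below the lower limit of tested probe sets (6.26), so it passed only through the D257A mice, and its fold and p are given as a description. At 1456081_a_at, 2 of 5 WT mice were below that limit. With no filter on dim signals the adjusted p was 5.67e-06 at 1423797_at and 1.63e-05 at 1456081_a_at (limma). The third probe set (1451116_at) was too dim to be tested, with 26.3, 53.5, 13.7, 18.9 and 59.1 in D257A and 97.6, 56.0, 37.7, 11.0 and 47.0 in WT. Its groups overlapped (log2 difference -0.46, two-sided exact permutation test, p = 0.5), and it did not show the rise of the other probe sets of Aacs.

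**Figure D2:**
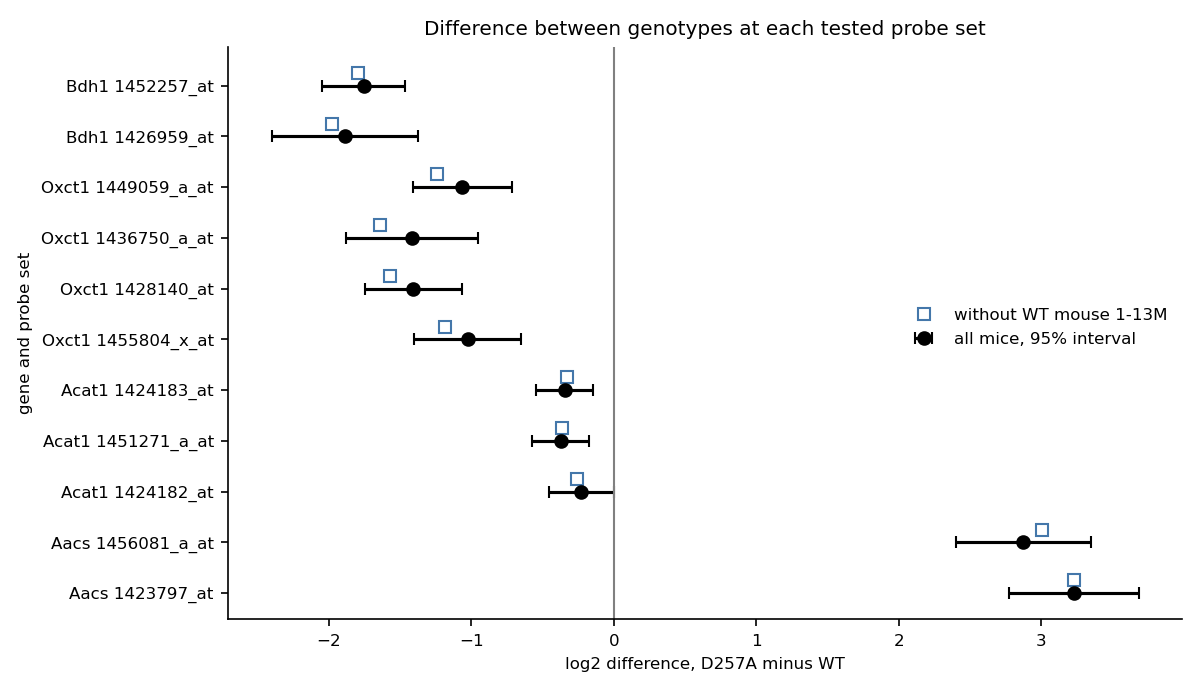
Log2 difference, D257A minus WT (horizontal axis), at the 11 tested probe sets; filled points use all mice and bars are 95% intervals, open squares leave out WT mouse 1-13M. Bdh1 and Oxct1 lie between -1.89 and -1.02, Acat1 between -0.37 and -0.23, and Aacs at 2.87 and 3.23.

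Whether the 4 genes differed by unequal amounts was tested with the log2 ratio of each pair of genes within a mouse, from the brightest probe set of each, over 6 pairs. The ratio of a pair compares changes and not levels, since probe sets of different genes are not on a common scale. The ratio Bdh1 over Oxct1 was -2.97, -2.83, -2.77, -2.79 and -2.45 in the D257A mice and -2.03, -1.50, -2.32, -1.98 and -2.52 in the WT mice. The D257A mice were lower, with Bdh1 reduced by more than Oxct1 (difference -0.69, two-sided exact permutation test, p = 0.0159, adjusted over the 6 pairs p = 0.019), with 24 of 25 D257A and WT mouse pairs in that order. Without mouse 1-13M the difference was -0.55 (exact permutation test, adjusted p = 0.0238).

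The ratio Oxct1 over Acat1 was -0.27, 0.01, 0.09, -0.02 and -0.03 in D257A and 0.74, -0.12, 0.76, 0.95 and 1.04 in WT. Mouse 1-13M, at -0.12, was the WT mouse inside the range of the D257A mice. The difference was -0.72 (exact permutation test, p = 0.0397, adjusted p = 0.0397). Without that mouse it was -0.92 (exact permutation test, adjusted p = 0.00952). That mouse was picked by its Oxct1 signal, so the value without it is a description. Bdh1 over Acat1 differed by -1.41 (exact permutation test, adjusted p = 0.0119) with no overlap. The 3 ratios over Aacs differed by -4.63 for Bdh1, -3.94 for Oxct1 and -3.22 for Acat1, each with no overlap and an exact permutation p of 0.00794, the smallest that 5 against 5 mice allow (adjusted p = 0.0119). By the brightest probe sets, the order of the falls was thus Bdh1, Oxct1 and Acat1, and each step between neighbours passed its test. The size of the steps depends on the probe set, since those of Oxct1 differed by -1.42 to -1.02. With the mean over all probe sets of a gene, Bdh1 over Oxct1 differed by -0.59 (exact permutation test, adjusted p = 0.0317). Oxct1 over Acat1 then differed by -0.91 (exact permutation test, adjusted p = 0.00952).

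**Figure D3:**
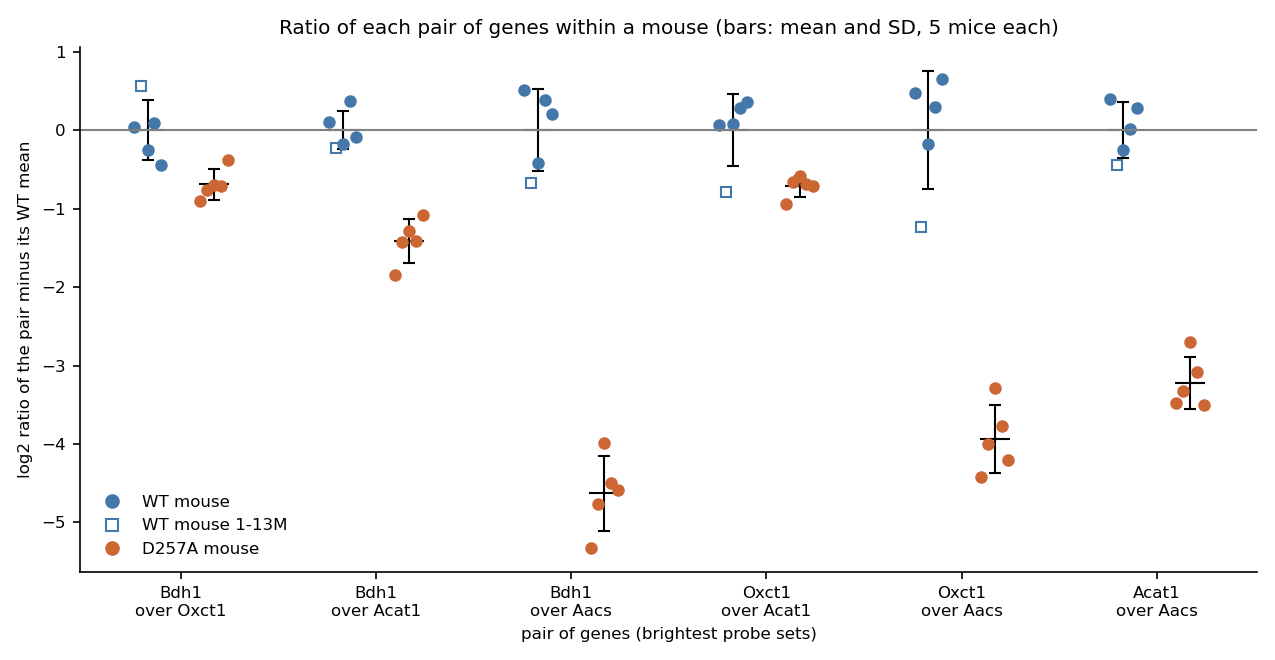
Log2 ratio of 2 genes within a mouse, minus the mean of that ratio in WT (vertical axis), for the 6 pairs of the 4 genes; points are mice, bars the mean and SD of 5 mice, with WT mouse 1-13M as an open square. The D257A mice lie below the WT mean in every pair, farthest in the 3 ratios over Aacs.

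Genes that work beside these enzymes were taken from lists by role, each gene by its brightest probe set. Of 59 such genes, 53 were named on the array and 44 were bright enough to be tested. In D257A, 9 were lower and 2 higher, against a background of 7.23% called (3.52% lower and 3.71% higher) over 11216 genes. The mice of the genotypes did not overlap at 8 lower and 1 higher of these genes, against 3.47% and 3.93% of all tested genes. Their median log2 difference was -0.24 and that of all tested genes -0.01. Without WT mouse 1-13M, 16 were lower and 3 higher, while the calls over all tested probe sets rose from 1662 to 3439. The number of related genes called was 6 without WT mouse 1-12M and 7 without D257A mouse 2-25M. With the leading digit of the mouse numbers as a block, the differences come from the mice numbered 2 alone. The calls at Hadhb, Acaa2, Bckdhb, Dbt, Acss2, Ppargc1b and Foxo1 were then lost (limma adjusted p = 0.0658 to 0.225, with directions kept). Thus 4 of the 11 were kept, and Crat and Esrra were gained.

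The paralogs Bdh2 and Oxct2a were too dim to be tested. Carriers that move ketone bodies and lactate across membranes did not pass, with 0 of 5 tested genes called. Slc16a1, the main monocarboxylate transporter of oxidative cells, had a log2 difference of -0.33 (limma adjusted p = 0.293) with signals of 3125 to 5803 in D257A and 4363 to 7286 in WT. Slc16a3, the lactate exporter of glycolytic fibres, had -0.53 (limma adjusted p = 0.235), and their chaperone Bsg 0.26 (limma adjusted p = 0.223).

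Of the other thiolases, which cleave longer chains in fat oxidation, 2 of 4 tested were lower. Acaa2 gave 3870.4 to 5070 in D257A and 6355 to 8259 in WT, a log2 difference of -0.62 (SE 0.11, limma adjusted p = 0.00497). Hadhb, the thiolase subunit of the trifunctional protein, gave -0.38 (SE 0.09, limma adjusted p = 0.0225), close to the difference at Acat1, with an adjusted p of 0.051 to 0.0592 without 2-17M, 2-21M, 2-27M or 1-12M. The other 2 probe sets of Hadhb did not pass (-0.33 and -0.38, limma adjusted p = 0.085 and 0.346), and both others of Acaa2 did (-0.46 and -0.90). The peroxisomal thiolases Acaa1a and Scp2 had differences of 0.01 and 0.05 (limma adjusted p = 0.969 and 0.859).

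In a list of 9 genes around succinyl-CoA and acetyl-CoA at the TCA cycle, Slc25a20 was the 1 that passed. Slc25a20 is the carnitine-acylcarnitine carrier of the inner membrane and not an enzyme of that cycle. It gave 2843 to 3667 in D257A and 4929 to 6216 in WT (log2 difference -0.72, SE 0.11, limma adjusted p = 0.00197). All 9 differences were below 0, but with median centring 7 were, with Cs at 0.11 and Sucla2 at 0.05. Citrate synthase (Cs), which condenses acetyl-CoA with oxaloacetate, had -0.02 (limma adjusted p = 0.905). Dld, a subunit shared by several dehydrogenase complexes, had -0.33 (limma adjusted p = 0.0638) and Crat, which buffers acetyl-CoA as acetylcarnitine, -0.41 (limma adjusted p = 0.0586). Without mouse 1-13M, Dld, Crat and Suclg1, a subunit of succinyl-CoA ligase, passed with adjusted p of 0.0102, 0.0418 and 0.0346. Without WT mouse 3-18M, Ogdh and Crat passed as well, at 0.0318 and 0.0159.

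In isoleucine breakdown, the route into Acat1 from an amino acid, 3 of 7 tested genes were lower and all 7 differences were below 0 (6 with median centring, where Hsd17b10 had 0.05). Bcat2, the mitochondrial aminotransferase, gave 119 to 339 in D257A and 344 to 1059 in WT (log2 difference -1.53, SE 0.32, limma adjusted p = 0.011, and 0.0695 with the methods' test). Bckdhb and Dbt, subunits of the branched-chain keto acid dehydrogenase, differed by -0.61 (limma adjusted p = 0.00597) and -0.63 (limma adjusted p = 0.0201). The call at Dbt was lost without D257A mouse 2-25M or WT mouse 1-12M (adjusted p = 0.0518 to 0.0588), and Bckdha, at -0.56 (limma adjusted p = 0.0741), passed without WT mouse 3-18M (adjusted p = 0.00816).

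In the cytosol, where the product of Aacs is used, 1 of 8 tested genes was higher and 1 lower. Acaca, the acetyl-CoA carboxylase that commits acetyl-CoA to fatty acid synthesis, was 741 ± 105 in D257A and 332 ± 62.2 in WT. Each D257A mouse exceeded each WT mouse (603 to 838 against 277 to 438), and the log2 difference was 1.17 (SE 0.15, limma adjusted p = 9.00e-04). The other probe set of Acaca was too dim to be tested and had a difference of 0.15. Acss2, which activates acetate, was lower at -0.57 (limma adjusted p = 0.0229), with an adjusted p of 0.0507 to 0.064 without 2-25M, 2-27M, 2-30M, 1-12M or 2-32M. Of its other probe sets, 1 was lower (-0.51, limma adjusted p = 0.0114) and 1 did not pass (-0.48, limma adjusted p = 0.326). Fasn, the fatty acid synthase, had 0.68 (limma adjusted p = 0.31) and Acly, which makes cytosolic acetyl-CoA from citrate, 0.20 (limma adjusted p = 0.379). Hmgcs1, the sterol enzyme that takes acetoacetyl-CoA, had -0.36 (limma adjusted p = 0.25) and passed without mouse 1-13M at -0.54 (adjusted p = 0.00845).

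Of 11 tested regulators of fat and ketone body oxidation, 2 were lower and 1 higher. Ppara, the fatty acid receptor that drives oxidation genes, gave 350.2 to 458 in D257A and 619.6 to 1052 in WT (log2 difference -0.94, SE 0.16, limma adjusted p = 0.00339), and its other 2 probe sets differed by -1.73 and -1.60. Ppargc1b, a coactivator of mitochondrial genes, differed by -0.91 (limma adjusted p = 0.0248), a call lost without 2-25M, 1-12M, 2-3M or 2-32M (adjusted p = 0.0532 to 0.0708). Foxo1, a fasting-responsive factor, was higher by 1.34 (SE 0.37, limma adjusted p = 0.0441), with signals of 3118 to 8656 in D257A and 1087 to 3479.5 in WT, and the call was lost in 8 of the 10 analyses that left out a mouse (without 2-17M, 2-21M, 2-25M, 2-27M, 2-30M, 1-12M, 2-3M or 3-18M, adjusted p = 0.0533 to 0.114). Of its other tested probe sets, 1 passed (1.16, limma adjusted p = 0.0456) and 1 did not (1.16, limma adjusted p = 0.0827). Ppargc1a, the better known relative of Ppargc1b, had -0.24 (limma adjusted p = 0.492). Esrra and Esrrg, the estrogen-related receptors, had -0.74 and -0.78 (limma adjusted p = 0.0567 and 0.0774). Without mouse 1-13M they passed at -0.96 and -1.05 (limma adjusted p = 7.38e-04 and 3.84e-04). Sirt3 at -0.77 and Nrf1 at 0.56 also passed without it (limma adjusted p = 0.00404 and 0.0181). That mouse was left out after the data had been seen, so these passes are a description.

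**Figure D4:**
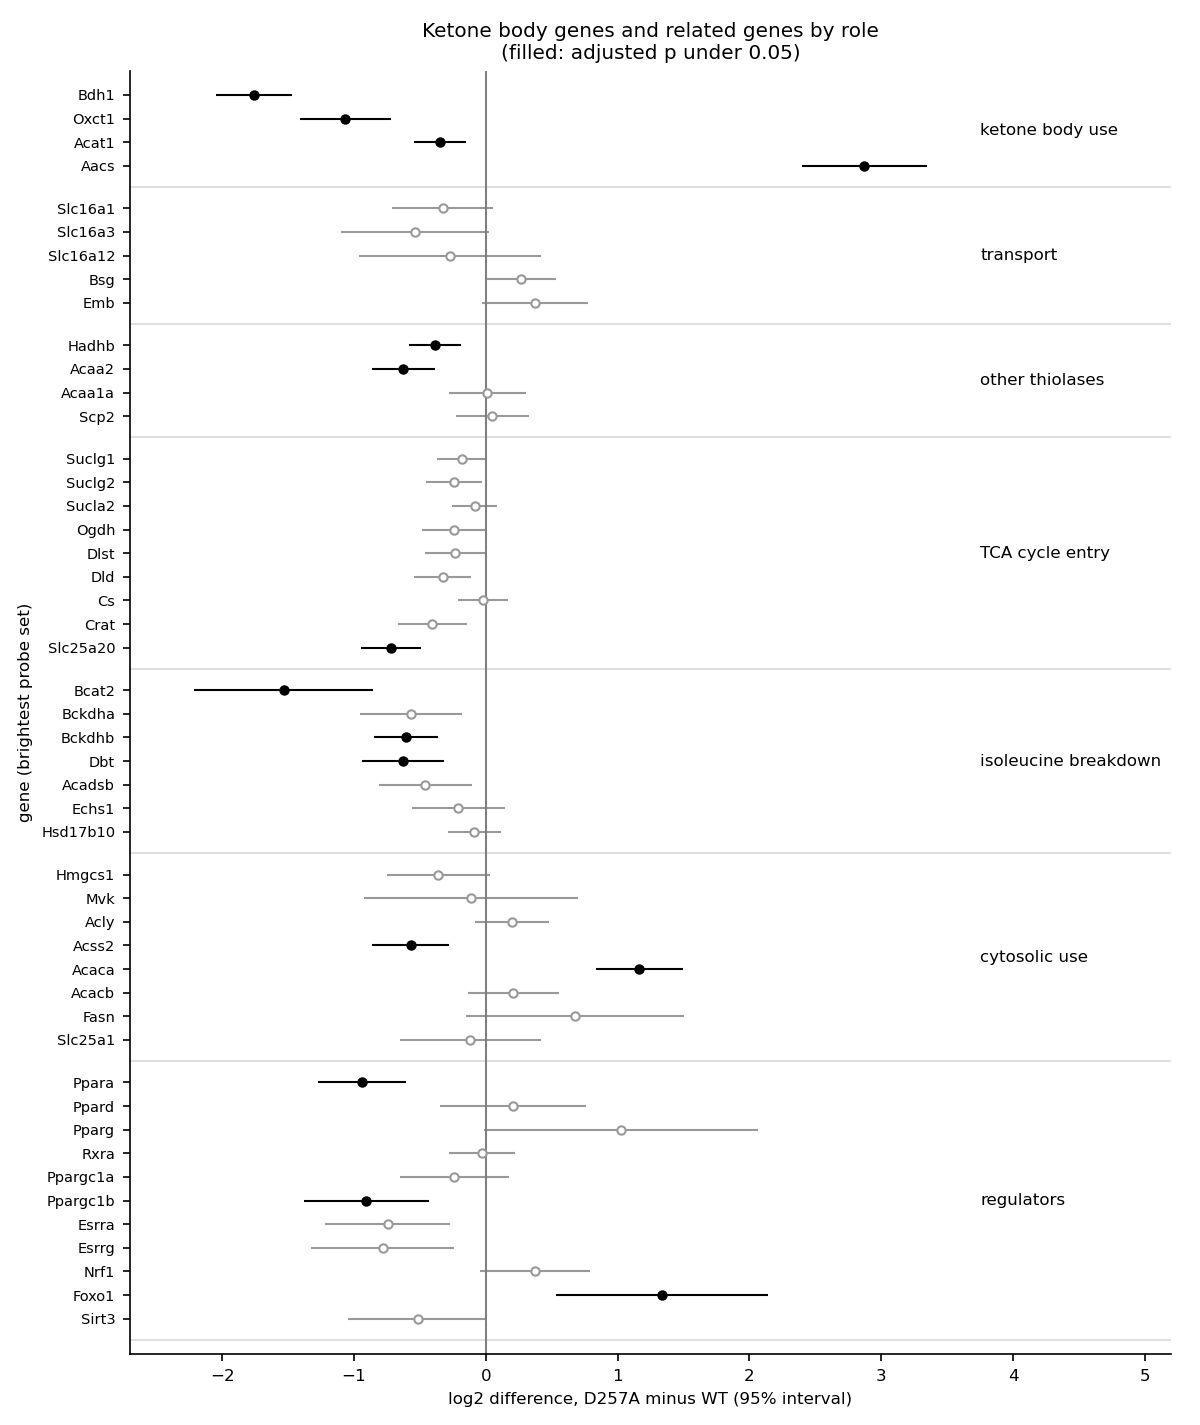
Log2 difference, D257A minus WT, with its 95% interval (horizontal axis), for Bdh1, Oxct1, Acat1, Aacs and the 44 tested genes of the related lists, grouped by role; filled points have an adjusted p under 0.05. The 9 lower genes are spread over thiolases, TCA cycle entry (the carrier Slc25a20 alone), isoleucine breakdown, cytosolic use and regulators. The 2 higher ones are Acaca and Foxo1.

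Transcripts of other cells and fibre types moved with genotype in part. Of 9 genes of slow and oxidative fibres, only myoglobin (Mb) was called, at -0.35 (limma adjusted p = 0.0353). The other 8 had differences above 0 that did not pass, such as Myh7 (0.59, limma adjusted p = 0.109) and Tnnt1 (0.44, limma adjusted p = 0.188), with a median of 0.33 over the list, and the summed signal was 147318 to 190859 in D257A and 132077 to 188921 in WT. The adipocyte genes (adipocytes also express Aacs and Acaca) summed to 20549 to 30603 in D257A and 14910 to 27671 in WT, with 1 of 5 tested higher (Retn, 1.18, limma adjusted p = 0.0452). Most of the mean sum was Fabp4, at 23458 of 27177 in D257A and 17549 of 20896 in WT. Adiponectin (Adipoq) had 0.30 (limma adjusted p = 0.742) and Fabp4 0.43 (limma adjusted p = 0.0808), whereas Cidec had -0.27 (limma adjusted p = 0.639). Leptin (Lep) had -1.18 (limma adjusted p = 0.165) and was lower without mouse 1-13M at -1.59 (adjusted p = 0.0173). Macrophage genes summed to 5223 to 7568 and 4625 to 6264, with Lyz2 higher among 5 (0.59, limma adjusted p = 0.042). Fibroblast genes summed to 20754 to 24679.7 and 20819 to 34094, most of it Dcn (means of 18050 in D257A and 19137 in WT). Of the 6, the collagens Col1a1, Col1a2 and Col3a1 were lower, at -2.87, -2.41 and -1.80 (limma adjusted p = 0.0282, 0.00163 and 0.0245). For Col3a1, 1 of the 2 probe sets did not pass (limma adjusted p = 0.0779). Without mouse 1-13M, Lum also passed, at -0.76 (adjusted p = 0.00531, against -0.48 and 0.294 with all mice). Mouse 1-13M had the lowest sum of the WT mice for the fibroblast genes. This was not particular to them, since it also had the lowest WT sum for skeletal muscle fibre, slow fibre and adipocyte genes. For macrophage and endothelial genes its sum was not the lowest. Of 6 endothelial genes 0 were called, and 4 of 5 hepatocyte genes were too dim to test. The part of these cells in the differences at Bdh1, Oxct1, Acat1 and Aacs was not tested. The calls at Mb, Retn, Lyz2, Col1a1 and Col3a1 were each lost in 4 to 8 of the 10 analyses that left out a mouse (adjusted p = 0.0515 to 0.112), and every mouse but 1-13M ended at least 1 of these calls when left out.

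Genes with the most similar profile over the 10 mice were found by the root mean square of the difference between mean-centred log2 signals, among 11216 genes by brightest probe set. Such a profile largely follows the genotype difference, so near genes are mostly those with a difference of like size. A shared role of neighbours was not tested. For Bdh1 these were Pcp4l1, Dusp18, Irx3, Alpk3 and Apol6, at 0.24 to 0.29 log2, against 0.90 for a flat profile, and Oxct1 came 31st. For Oxct1 they were Kmt5a, Pcca, Ptpn3, Rcan2 and Rhobtb1, at 0.13 to 0.16 against 0.60. Pcca is a subunit of propionyl-CoA carboxylase, the enzyme that handles the other product of isoleucine breakdown. For Acat1 they were Pxmp2, Steap4, Etfdh, Etfa and Glrx, at 0.07 to 0.09 against 0.21, and Etfa and Etfdh pass electrons from fat and amino acid oxidation to the respiratory chain.

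For Aacs the nearest profiles were Sln, Fam174b, Hddc3, Arrdc4 and Ccl8, at 0.43 to 0.56 against 1.48. Sln encodes sarcolipin, an inhibitor of the calcium pump of the sarcoplasmic reticulum, and it was higher in D257A by 3.16 log2 (limma adjusted p = 1.95e-05). Of these 5 genes, 3 (Fam174b, Hddc3 and Arrdc4) lie on the chromosome that carries Polg, as does Alpk3 among the neighbours of Bdh1, compared with 7.60% of the tested genes. None of Bdh1, Oxct1, Acat1 and Aacs lies on it.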

How the data were processed

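RNA of gastrocnemius muscle from 5 D257A and 5 WT male mice was hybridised to Affymetrix Mouse Genome 430 2.0 arrays, 1 mouse per array. The deposited intensity values are 1 linear signal per probe set and array, made by the authors with GCOS 1.3, with no signal algorithm named. The supplement states a scaling to 500, but the trimmed means of the deposited columns (without the top and bottom 2%) were much lower, so each array was scaled to 500 here. Signals were log2 transformed, 64 control probe sets were left out, and the 22518 probe sets with a mean above the median of all (6.26) were tested. Gene names came from the platform annotation: 34945 probe sets name 1 gene, 932 several and 9160 none. The genotypes were compared with limma 3.58.1 (R 4.3.3; lmFit, eBayes with a variance trend, Benjamini-Hochberg adjustment over all tested probe sets, threshold 0.05). Single values were compared with two-sided exact permutation tests over the 252 assignments of the mice, or fewer where a mouse was left out. These used SciPy 1.17.1 for the array measures and a direct enumeration in Python 3.11.15 for the genes and pairs. The number of arrays limits the precision.

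The genes and the lists were chosen with earlier results of these data known. For each member all probe sets are given, for each related gene the brightest. Alternatives were no further scaling, quantile normalization, median centring, no filter, no variance trend, array weights, an offset of 32, the methods' test on log2 values, the mice numbered 2 alone, a block on the leading digit of the numbers, the mean over the probe sets of a gene, and each mouse left out in turn. The values without WT mouse 1-13M were placed beside the results after the data had been seen. The labels and the supplement give males, while the methods name both sexes.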

Additional observations from a re-analysis of the deposited data

Results flagged for a closer look

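In 3 of the 24 sets of 5 mice examined (12 probe sets, each in both genotypes), 1 mouse stood apart from the others of its genotype, by a gap to its nearest neighbour of over 0.71 of the whole range of log2 signals. Each time it was WT mouse 1-13M at Oxct1, where it had the lowest WT signal. The gap was 0.747 of the range at 1449059_a_at, 0.717 at 1436750_a_at and 0.73 at 1428140_at. Chance gives such a gap in about 1 in 20 sets, and the probe sets of Oxct1 report the same transcripts of the same mice, so they do not count as separate cases. The WT log2 signals at 1449059_a_at were 13.51 in mouse 1-13M and 14.27 to 14.53 in the other WT mice, and the D257A signals were 13.02 to 13.32.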

How the results depend on the processing

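The probe sets of Bdh1 and Oxct1 and Aacs 1456081_a_at kept their direction and their call in all 20 alternatives, with adjusted p of at most 0.0366. Log2 differences were -1.83 to -1.62 and -2.11 to -1.70 for Bdh1, -1.64 to -0.89 for Oxct1 and 2.50 to 3.01 for Aacs 1456081_a_at. Aacs 1423797_at passed the filter only through the D257A mice, so its 2.75 to 3.56 is a description. Acat1 kept its direction but its calls were lost in 12 of 20 alternatives at 1424183_at (-0.42 to -0.21, adjusted p up to 0.247) and in 13 of 20 at 1451271_a_at (-0.45 to -0.24, adjusted p up to 0.159); the cause was not tested. All 6 pairs of genes passed with quantile normalization, an offset of 32, the mean over the probe sets of a gene and each mouse left out. A ratio within a mouse cannot change with no further scaling or median centring, so these do not bear on the pairs. Array weights, the methods' test, the mice numbered 2 alone and the block on the leading digit were not run for pairs. Over all probe sets, the 1662 calls became 3968 with array weights, 1033 with the methods' test, 562 with the leading digit as a block, and 894 to 3439 with 1 mouse left out, the highest without WT mouse 1-13M and 894 to 1098 without 2-17M, 2-25M, 2-30M, 1-12M, 2-3M or 2-32M. The 11 calls among related genes became 21 with array weights, 6 with the leading digit as a block, 7 with the methods' test and 6 to 19 with 1 mouse left out (6 without 1-12M, 7 without 2-25M, 19 without 1-13M); all but array weights were added after the data had been seen. The median log2 difference of all tested probe sets was -0.03, but -0.10 with no further scaling and 0.10 with median centring. Without a filter, Aacs 1451116_at had an adjusted p of 0.786. No paired analysis was possible because the mouse numbers are not shared between the genotypes. Signals near background limit the size of the ratios at Aacs.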
